A study of Mus musculus with 6 samples.

Results

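Processed pseudogenes are copies of spliced messenger RNAs that were reverse transcribed and inserted into the genome, and the ones with reads were examined in acini, the units of the exocrine pancreas that make digestive enzymes. They were chosen by annotation and raw count, as the genes annotated as processed or transcribed processed pseudogenes with at least 10 raw counts in 2 or more of the 6 libraries. The rule kept 277 of the 10303 pseudogenes of these types in the table, among 56953 genes in all. Outside the rule, 7013 had 0 counts in all libraries. At the border of the rule, 24 members had exactly 10 counts in their second highest library, and 28 pseudogenes with exactly 9 stayed outside. Because the rule used the counts, a pseudogene seen in 1 group alone could enter only through that group.

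The libraries came from primary acini after 3 days of an ex vivo assay of acinar-to-ductal metaplasia, the change of acinar cells into duct-like cells, in medium with serum, trypsin inhibitor and dexamethasone. Wild-type acini without treatment (WT) gave 2 libraries, labelled male at 10 weeks and female at 11 weeks. Acini of mice that lack Dkk3, which encodes a secreted glycoprotein of the Dickkopf family, gave 2 untreated libraries (DD; males of 12 and 13 weeks) and 2 libraries after recombinant DKK3 (DD + rDKK3; males of 14 and 15 weeks). The knockout is in all cells of the mouse, the strain is not given in the sources used here, and age and group cannot be told apart. The only library labelled female is WT 2, so sex is also unequal between WT and the null groups. In their titles, the first DD and the first DD + rDKK3 library are both called DD1, and the second of each DD2. Library totals ranged from 12018473 to 19750401 counts. Dkk3 had 10 and 1 counts in WT against 11 and 9 in DD, with 5 and 5 after rDKK3. These counts sum all exons of the gene, so they do not show whether the deleted exon was read and check no label. The 9 acinar markers summed to between 82770 and 142200 CPM (counts per unit of library depth after TMM scaling) in each library.

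A processed pseudogene carries no introns and often lies far from its parent gene. It has no promoter of the parent's, so it is read mainly where it landed near other transcription. Highly expressed housekeeping genes, above all those for ribosomal proteins, left the most copies. Such copies differ in number and sequence between mouse strains, and because they resemble the parent messenger RNA, short reads can be assigned to the copy or to the parent on the strength of a few bases.

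That resemblance is shown first for the 3 parents that have a called copy, as stretches of 120 bases of GRCm39. In each set the parent's coding sequence is given first, with capitals where any copy below it differs, and each copy has capitals where it differs from the parent. For Rps3a1, which encodes a protein of the small ribosomal subunit, bases 526 to 645 of the coding sequence are shown with the copies Rps3a3 (chr13:108807662-108807781, plus strand) and Rps3a2 (chr14:88360600-88360719, minus strand).
Rps3a1: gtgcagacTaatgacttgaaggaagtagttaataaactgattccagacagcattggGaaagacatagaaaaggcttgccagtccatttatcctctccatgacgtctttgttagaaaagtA
Rps3a3: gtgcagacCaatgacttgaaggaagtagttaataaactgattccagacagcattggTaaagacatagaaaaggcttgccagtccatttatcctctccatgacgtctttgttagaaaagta
Rps3a2: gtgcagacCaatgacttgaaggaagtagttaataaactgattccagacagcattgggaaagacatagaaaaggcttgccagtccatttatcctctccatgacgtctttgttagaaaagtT

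Rps3a3 matched all 795 bases of the Rps3a1 coding sequence without a gap, with 9 differing bases and a longest identical run of 215 bases. Counted from the first base of the coding sequence, T216C and T534C were shared by both copies, while C363T, G582T and C762T were among those of Rps3a3 alone. Its reading frame ran over 264 codons to the stop, as in the parent. Rps3a2 differed from Rps3a1 at 4 of the 792 aligned bases, and its longest identical run was 317 bases.

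For Rps13, which encodes another protein of the small ribosomal subunit, bases 310 to 429 are shown with Rps13-ps1 (chr8:87774657-87774776, plus strand) and Rps13-ps2 (chr7:88179678-88179797, minus strand).
Rps13: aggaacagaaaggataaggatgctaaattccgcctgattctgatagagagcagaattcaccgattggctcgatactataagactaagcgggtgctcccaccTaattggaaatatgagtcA
Rps13-ps1: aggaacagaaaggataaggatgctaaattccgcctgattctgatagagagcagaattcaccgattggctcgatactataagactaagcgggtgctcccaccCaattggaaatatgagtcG
Rps13-ps2: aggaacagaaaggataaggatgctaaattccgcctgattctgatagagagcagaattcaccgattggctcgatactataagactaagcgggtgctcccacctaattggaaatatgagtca

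Rps13-ps1 held all 456 bases of the Rps13 coding sequence with just the differences T411C and A429G, both within the printed stretch, and an open frame of 151 codons. Reads of 50 bases from the first 410 bases of that sequence were identical in parent and copy. Rps13-ps2 was identical to Rps13 over 453 aligned bases.

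For Fabp5, which encodes a fatty acid-binding protein, bases 259 to 378 are shown with its copy Gm6166 (chr9:57391506-57391625, plus strand).
Fabp5: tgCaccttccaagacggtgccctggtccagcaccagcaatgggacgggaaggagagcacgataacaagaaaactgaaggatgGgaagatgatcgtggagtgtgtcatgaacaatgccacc
Gm6166: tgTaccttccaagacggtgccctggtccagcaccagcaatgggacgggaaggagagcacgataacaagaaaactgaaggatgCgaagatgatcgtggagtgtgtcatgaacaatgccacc

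Gm6166 differed from Fabp5 at 5 of 407 aligned bases, C261T and G341C among them, and by 1 gap. Its frame stopped after 107 codons, against 135 codons in Fabp5.

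The 277 pseudogenes were then compared with all coding transcripts. The best coding match was a ribosomal protein gene for 98 members, of which 47 would be recognised from the symbol alone, and another gene for 179 members, 2 of these without any match. The 98 ribosomal copies came from 62 parents and 11 of them were annotated as transcribed. Identity to the best match had a median of 98.9% in ribosomal copies and 98.4% in the others. Copies of Eef1a1, which delivers aminoacyl-tRNA to the ribosome, and of Gapdh, a glycolytic enzyme, were the most numerous with 12 members each. Rps4x, Rpsa and Npm1, a nucleolar protein, had 4 members each. These families are named by their number of members, chosen after the values were seen.

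How much of each pseudogene could be told from the rest of the genome was measured as the share of its 50-base windows, the length of a read, that occur once in GRCm39 on either strand and in no coding transcript. This share had a median of 32.1% over 239 members with a usable span, against 93.8% over 10027 processed pseudogenes of the table irrespective of reads. It was 29.6% in ribosomal copies and 34.1% in the others. The share treats reads singly, although they were paired and the second read of a pair can lie outside the pseudogene. In 31 members no window was distinct, and in 13 members, none of them ribosomal, 90% or more of the windows were. Of all members, 176 overlapped no coding gene, 65 lay opposite a coding gene, 28 lay in a same-strand intron and 8 met a same-strand exon, where reads of the host gene can be counted too. Levels followed the share of distinct windows only loosely. The length of a best coding match was that of all its annotated exons joined, over every transcript. It can exceed the length of the messenger RNA, so the percentages of the parent's level below can be too high. Per kilobase, members without any distinct window had a median of 3.33% of the CPM of their best coding match, and members with 50 to under 90% distinct windows had 0.702%. Among the members with 90% or more the median was 226.6%, beside parents that were hardly read themselves in some cases. Gm14057, chosen after its values were seen, had 2.02 CPM per kilobase where its match Ppp1r14c, a phosphatase inhibitor, had 0.00347. By these lengths no ribosomal copy exceeded its parent per kilobase, while 24 of the 149 other members with a value did. Long joined exons of a parent can raise that number.

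**Figure D1:**
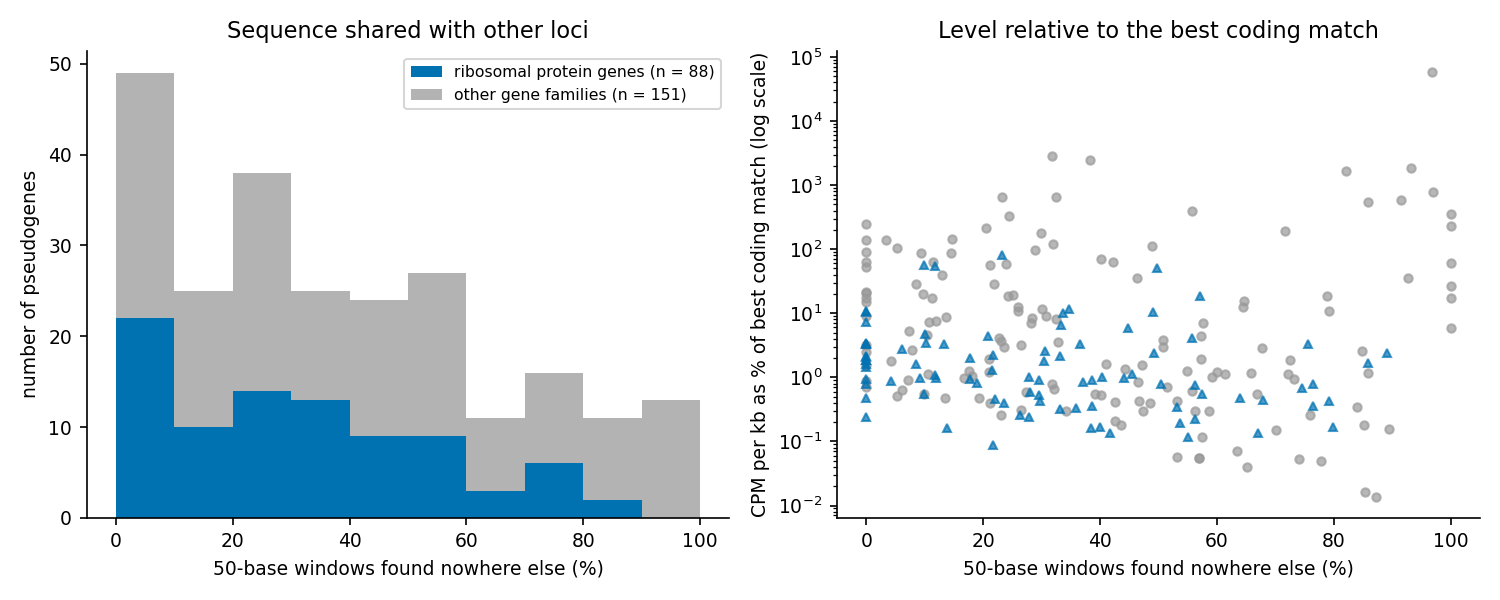
Left, number of processed pseudogenes by the percentage of their 50-base windows found nowhere else in GRCm39 or its coding transcripts, for 88 ribosomal and 151 other copies. Right, CPM per kilobase as a percentage of that of the best coding match (log scale) against the same percentage, 1 point per pseudogene. The length of the match was that of all its annotated exons joined, so its percentages can be too high. Ribosomal copies (triangles) all lie below 100% on the right, and the 13 pseudogenes at 90% or more are all of other gene families.

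The pseudogenes were mostly near the limit of detection. Mean CPM over the 6 libraries was under 1 in 127 members, from 1 to 10 in 143 and above 10 in 7, and 153 members reached 10 counts in every library. In 13 members the libraries with 10 counts were those of a single group, 3 of WT, 6 of DD and 4 of DD + rDKK3. These raw-count numbers depend on depth, and the WT libraries had the lowest totals. The rule admits such members through that group alone. The numbers are given without the share over all genes and are descriptions only. The 277 members together took between 0.0602% and 0.0857% of all counts of a library. Rps3a3 and Rps13-ps1 alone held between 13.2% and 23.3% of the members' counts. Per kilobase, the median was 2.91 CPM in ribosomal copies and 1.39 CPM in the others.

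Rps3a3 and Rps13-ps1 had 85.4 and 115.2 CPM per kilobase over all libraries. Next by CPM, which is not corrected for length, came Gm6192 (23.9 CPM per kilobase), a copy of Eef1a1 in an intron of Slc22a27. Its raw counts were 456 and 449 in WT against 588 and 571 in DD, with 573 and 519 after rDKK3, which gave 38.2 ± 9.38, 30.7 ± 4.06 and 29.1 ± 1.66 CPM (mean ± SD, n = 2 each). The DD libraries overlapped with WT while both treated libraries lay below both WT libraries, without a call (edgeR adjusted p = 0.364), and Slc22a27 itself had at most 1 count in a library. Gm10275, a transcribed copy of Rpl12 that is 100% identical to it over the match, had 34.8 ± 8.58 CPM in WT, with 24.7 ± 6.45 in DD and 21.5 ± 2.27 after rDKK3. Gm15500, a transcribed copy of Rpl5 with 100% identity, had 26.5 ± 5.25, 20.1 ± 5.18 and 17.5 ± 1.92 CPM in the same order. In both, the highest library was WT 1, the DD libraries overlapped with WT, and the treated libraries lay below both WT libraries without a call (edgeR adjusted p = 0.322 and 0.322).

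Rps4l differed most from its match among the abundant ribosomal copies, with 79.7% identity to Rps4x and 89.1% distinct windows. It had 248 and 228 counts in WT against 367 and 322 in DD, with 317 and 319 after rDKK3, or 20.2 ± 5.90, 18.2 ± 1.10 and 17.0 ± 0.293 CPM. WT 1 lay above and WT 2 below the other 4 libraries, and the edgeR log2 fold change of DD against WT was -0.15 (SE 0.22, adjusted p = 0.803). Gm8373, a copy matching Rps13 at 90.6% identity, had 7.63 ± 0.929, 7.45 ± 0.434 and 6.21 ± 0.0333 CPM. This second copy of Rps13 did not follow Rps13-ps1. It overlaps the coding gene Glo1, which had means of 61.55, 57.32 and 49.56 CPM in the same order of groups. The part of Glo1 reads in its counts was not tested. Gm6204, a copy of Rps14, had a mean level over all libraries of 7.04 CPM.

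Among the other families, Gm13456 and Gm6548, further copies of Eef1a1, had means of 14.2 and 7.74 CPM. Tmed10-ps, from a gene for a cargo receptor of the early secretory pathway, and Ap2m1-ps, from a gene for a clathrin adaptor subunit, lay in introns of Lyrm4 and Mbd5 at 8.95 and 7.52 CPM. Tpt1-ps3, identical to Tpt1 over the match and without any distinct window, stood at 7.33 CPM. Gm16285 and Gm49190 matched Eloc, which encodes elongin C, and Jpt2 at just 76.6% and 77.4%, and lay opposite Tc2n and Mapk1ip1l at 8.50 and 7.90 CPM. The transcribed copy 2810025M15Rik of Slc3a2, the heavy chain of amino acid transporters, had 6.64 CPM. Apart from Rps3a3 and Rps13-ps1, none of these 14 abundant pseudogenes was called in any of the 3 comparisons, and their log2 fold changes of DD against WT lay between -0.95 and 0.26.

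The question of the first comparison was what differed when Dkk3 was absent. Of the 264 pseudogenes that passed the filter on low counts, 4 were called in DD against WT, 1 higher and 3 lower, where 6 of all 14738 genes tested were called (0.0407%; 0.0136% higher and 0.0271% lower). Of these 4, 3 were ribosomal copies, out of 96 tested, and 1 was another copy, out of 168. At an unadjusted p under 0.05 stood 16 members, 3 higher and 13 lower, or 6.06% of those tested, against 8.26% of all genes (4.27% higher and 3.99% lower). An absolute log2 fold change under 1 was found in 241 of the 264, or 91.3%, against 94.6% of all genes tested.

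**Figure D2:**
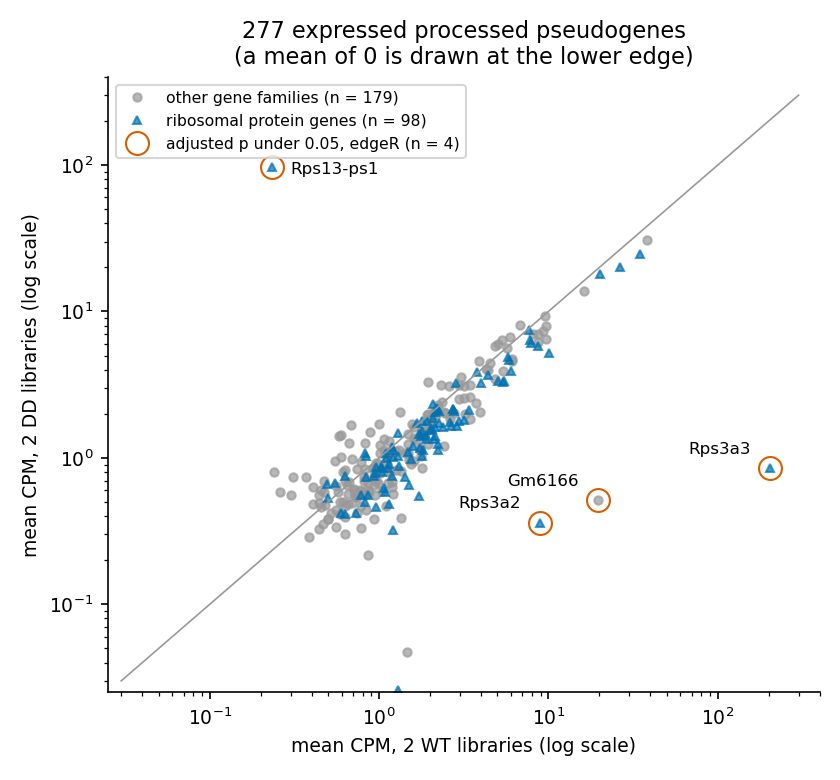
Mean CPM of each of the 277 processed pseudogenes in the 2 DD libraries against that in the 2 WT libraries (both axes log scale; triangles are ribosomal copies, circles are other families, the line marks equal levels). The 4 ringed pseudogenes were called by edgeR and lie far from the line, Rps13-ps1 above it and Rps3a3, Gm6166 and Rps3a2 below it.

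An on/off pattern between WT and all 4 Dkk3-null libraries was seen in 6 members. It was defined as at least 10 counts in every library of the high group and a lowest CPM there at least 8 times the highest CPM of the low group. Only 8 of 14819 genes with the same minimum counts did so (0.054%), the other 2 being Selenbp2 and Capza1-ps1, which is annotated as a pseudogene of unspecified kind. Of the 6 members, 5 were high in WT (0.0472% of all these genes) and 1 in the null libraries (0.00675%). DD against WT alone gave 5 members and 9 genes in all (0.0607%). A low group at 0 throughout was set at the floor of 3 counts, but lower counts above 0 were not raised to it. The ratios of H2af-ps2 (14.5) and Rps13-ps2 (22.2) between WT and the null libraries thus rest on null counts below that floor. Rps13-ps2, at 0 in DD and so set at the floor, was not on/off in DD against WT alone. Since the rule for members can admit a gene through its high group, these counts are descriptions.

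Rps3a3 (ENSMUSG00000059751.8, plus strand, 108807137 to 108807931 on chromosome 13) lies in an intron of Pde4d, which encodes a phosphodiesterase that breaks down cyclic AMP. It had 2201 and 2684 counts in WT against 11 and 20 in DD, with 11 and 9 after rDKK3. No null library came near the WT libraries, and those were close to each other. The levels were 202.4 ± 19.6 CPM in WT, with 0.848 ± 0.463 in DD and 0.533 ± 0.0685 after rDKK3, and edgeR gave a log2 fold change of DD against WT of -7.93 (SE 0.32, adjusted p = 0.000208). Pde4d on the same strand stood at 3.95 ± 0.172 CPM in WT and 4.45 ± 0.0613 in DD, with a log2 fold change of 0.17 (SE 0.25, adjusted p = 0.801).

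Rps13-ps1 (ENSMUSG00000066362.6, plus strand, 87774317 to 87774854 on chromosome 8, outside coding genes) ran the other way. It had 4 and 1 counts in WT against 1666 and 1941 in DD, with 1688 and 1659 after rDKK3. All 4 null libraries carried it at a like level, 96.5 ± 24.9 CPM in DD and 89.2 ± 0.0532 in DD + rDKK3, and WT lay near 0. The log2 fold change of DD against WT was 8.82 (SE 0.43, edgeR adjusted p = 0.00043). From the 5 counts of both WT libraries together, the ratio of DD to WT was 461.8, with an exact 95% interval of 197.7 to 1423.

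Gm6166 (ENSMUSG00000074280.7, plus strand, 57391246 to 57391654 on chromosome 9) had 213 and 259 counts in WT against 8 and 11 in DD, with 0 and 4 after rDKK3. WT and null libraries did not overlap, and the treated libraries lay lowest. The log2 fold change of DD against WT was -5.26 (SE 0.51, edgeR adjusted p = 0.0246). Rps3a2 (ENSMUSG00000062611.5, minus strand, 88360453 to 88361244 on chromosome 14) had 106 and 104 counts in WT against 9 and 5 in DD, with 8 and 6 after rDKK3, with a log2 fold change of -4.57 (SE 0.40, edgeR adjusted p = 0.0152). Both calls rested on all 4 WT and DD libraries: without either WT or either DD library the adjusted p rose to between 0.127 and 0.256 for Gm6166 and to between 0.0828 and 0.154 for Rps3a2, with log2 fold changes still at or below -4.29. Scaling by library size alone gave Gm6166 an adjusted p of 0.0588. Rps3a3 and Rps13-ps1 kept their calls in all 14 alternatives.

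The last on/off pair was sparse and not called by edgeR with the filter on low counts, while the other fits were divided. In DD against WT, Rps13-ps2 was called by DESeq2 (adjusted p = 0.0263) and limma-voom (adjusted p = 0.0495), H2af-ps2 by neither (0.134 and 0.323). In edgeR without the filter both were called, at adjusted p = 2.19e-06 and 3.69e-05. Over all genes these 3 fits called 77, 8 and 528, against 6 by edgeR with the filter. H2af-ps2 (ENSMUSG00000091383.3, minus strand, 51356763 to 51357101 on chromosome 13) is a copy of a histone H2A gene, best matched by H2ac19 at 99.4%. It had 14 and 22 counts in WT against 2 and 0 in DD, with 1 and 0 after rDKK3, where 3 counts would be 0.176 CPM in DD 2 and 0.161 CPM in DD + rDKK3 2. The ratio of WT to DD was 28.1 (exact 95% interval 7.24 to 241, edgeR adjusted p = 0.424). H2ac19 had at most 4 counts in any library. Rps13-ps2 (ENSMUSG00000069972.7, minus strand, 88179654 to 88180106 on chromosome 7) had 14 and 17 counts in WT against 0 and 0 in DD, with 1 and 1 after rDKK3. Against the floor of 3 counts per library it was at least 7.28-fold lower in DD (edgeR adjusted p = 0.232). As it has no window that differs from other loci, a single read inside its span cannot be told from reads of other loci. Read pairs that reach beyond the span were not examined.

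**Figure D3:**
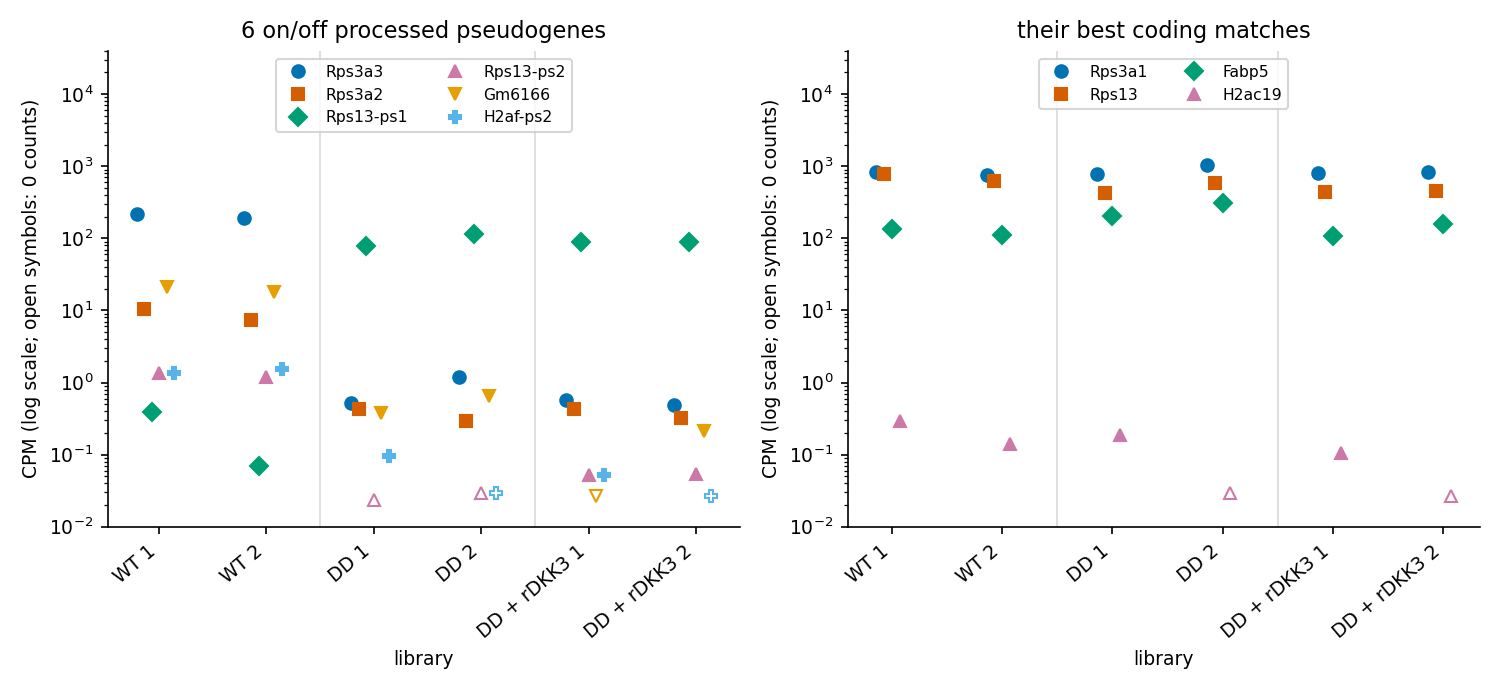
CPM (log scale) of the 6 on/off pseudogenes on the left and of their best coding matches on the right, in each of the 6 libraries; open symbols mark 0 counts and are drawn below the level of 1 count. Rps13-ps1 is high in the 4 null libraries and the other 5 pseudogenes in the 2 WT libraries, while Rps3a1 and Rps13 stay between 421.5 and 1057 CPM.

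Reads that a copy gains or loses can be matched by its parent, so the counts of each parent and all of its member copies were added. In the Rps3a1 family the copies held 21.5% and 20.9% of the family's counts in WT and between 0.214% and 0.252% in the null libraries. Rps3a1 itself had 831.8 and 746.9 CPM in WT against 779.4 and 1057 in DD, with 815.8 and 828.1 after rDKK3. Its level did not separate the groups. The log2 ratio of DD to WT was 0.22 for Rps3a1 alone and -0.12 for the family sum.

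Of 85 coding genes for cytosolic ribosomal proteins tested, Rps3a1 had the highest log2 fold change in DD against WT, at 0.22 (SE 0.20, edgeR adjusted p = 0.692), the next being -0.02 and the median -0.32. Without DD 2 its value was -0.02. The family sum lay closer to the median of these genes than Rps3a1 alone. With Rps3a1 at the top and its copies together high in WT, adding them could only lower the value, so the direction was fixed beforehand.

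In the Rps13 family the copies held 1.10% and 1.51% in WT and between 16.9% and 18.01% in the null libraries. Rps13 had 788.2 and 624.9 CPM in WT against 421.5 and 581.8 in DD, with 434.6 and 457.3 after rDKK3. All null libraries lay below both WT libraries, and the log2 ratio of DD to WT was -0.49 for Rps13 alone (SE 0.22, edgeR adjusted p = 0.586) and -0.24 for the family sum. Rps13 ranked 80 of the 85 ribosomal protein genes from the top. The family sum was nearer to their median, but adding copies that were high in the null libraries could only raise the value.

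Gm6166 took 13.6% and 14.0% of the counts of Fabp5 and Gm6166 together in WT and at most 0.208% in a null library. Fabp5 had 133.2 and 112.0 CPM in WT against 206.9 and 310.4 in DD, with 108.3 and 157.5 after rDKK3. The log2 ratio of DD to WT was 1.08 for Fabp5 alone (SE 0.26, edgeR adjusted p = 0.555) and 0.87 with Gm6166 added. The fits were divided on Fabp5: DESeq2 (adjusted p = 0.0143) and edgeR without the filter (adjusted p = 5.11e-06) called it. Limma-voom (adjusted p = 0.617) and edgeR with RLE size factors (adjusted p = 0.57) did not. Over all genes DESeq2 called 77 and edgeR without the filter 528. Whether reads moved between copy and parent was not tested, since the alignments were not used here.

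**Figure D4:**
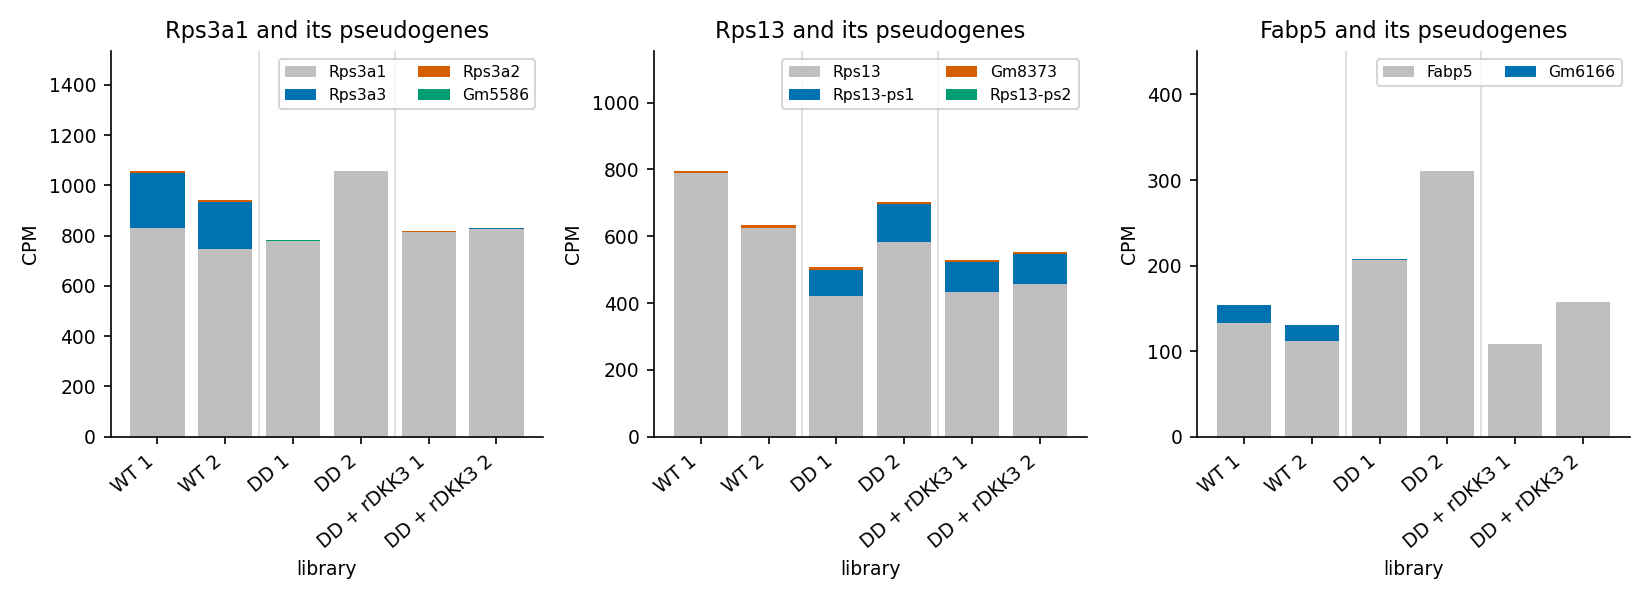
CPM of Rps3a1, Rps13 and Fabp5 (grey) with their processed pseudogenes stacked on top, in each of the 6 libraries. Rps3a3 forms a visible layer in WT alone, Rps13-ps1 in the 4 null libraries alone, and Gm6166 in WT alone.

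The second comparison asked what recombinant DKK3 did to Dkk3-null acini. None of the 264 pseudogenes tested was called in DD + rDKK3 against DD, where none of the 14738 genes was (0%). At an unadjusted p under 0.05 stood 5 members, 1.89% against 1.98% of all genes. DESeq2 and limma-voom also called 0 members, with 1 and 6 at an unadjusted p under 0.05. No member was on/off between these groups. The pair of copies with the most reads had log2 fold changes of -0.62 (SE 0.43) for Rps3a3 and -0.11 (SE 0.24) for Rps13-ps1. Gm6166 was listed with 8 and 11 counts before and 0 and 4 after treatment, a log2 fold change of -2.16 (SE 0.80), and was among the 5 at an unadjusted p under 0.05.

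The third comparison set treated null acini against WT, with the same WT libraries as the first. Again 4 members were called, 1 higher and 3 lower, among 7 genes in all (0.0475%; 0.0136% higher and 0.0339% lower), and 6 were on/off among 8 genes (0.054%). The log2 fold changes were -8.55 (SE 0.33) for Rps3a3, 8.70 (SE 0.43) for Rps13-ps1, -7.42 (SE 0.62) for Gm6166 and -4.54 (SE 0.39) for Rps3a2, with edgeR adjusted p of 0.000168, 0.000475, 0.0126 and 0.0127. At an unadjusted p under 0.05 stood 26 members, 25 of them lower and 1 higher, or 9.85% of those tested, against 15.3% of all genes (8% lower and 7.34% higher). Without either WT library Gm6166 and Rps3a2 were no longer called, with adjusted p of 0.0745 to 0.117, nor by limma-voom, at 0.0666 for each. Leaving out either DD + rDKK3 library also ended the call of Rps3a2, at 0.153 and 0.158.

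Ribosomal copies as a group had medians below 0 in all 3 comparisons. The median log2 fold change of DD against WT was -0.37 over the 96 ribosomal copies tested, beside -0.22 over the 168 others, 0.02 over all genes and -0.32 over the 85 coding genes for cytosolic ribosomal proteins. In DD + rDKK3 against DD the medians were -0.26, -0.12, 0.00 and -0.17 in the same order. For treated null acini against WT the values were -0.64, -0.36, 0.02 and -0.49. In each comparison the median of the ribosomal copies lay on the same side as that of their coding genes and somewhat further from 0, and edgeR called 0 coding genes of that list, with 1, 0 and 35 of the 85 at an unadjusted p under 0.05 in the same order of comparisons. These medians share libraries and are descriptions.

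Member and parent were also set side by side. Across 250 members with both tested, Spearman's rho between the log2 fold changes of DD against WT was 0.38 and Pearson's r was 0.02. Within the 30 members without any distinct window rho was 0.64 and the median absolute gap between copy and parent was 0.21. Within 62 members with above 0 to under 25% distinct windows rho was 0.24 and the gap 0.26, and within 64 members with 25 to under 50% they were 0.36 and 0.27. Within 58 members with 50 to under 90% rho was 0.36 and the gap 0.30, and within the 6 members with 90% or more, -0.14 and 0.67. Points of such a correlation share the libraries and often the parent, so it is given without a test.

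Eef1a1 and Gapdh copies show the spread inside a family. The 12 Eef1a1 members had mean levels of 0.443 to 32.6 CPM and log2 fold changes of DD against WT from -0.63 to 0.14 beside -0.12 (SE 0.20) for Eef1a1 itself. The 12 Gapdh members had 0.428 to 1.46 CPM and ranged from -0.80 to 1.19. None of the members with values in either family was called.

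Libraries also differed within a group. In the null libraries those numbered 1 and 2 were compared by the same 8-fold rule, and 1 member was on/off, as were 17 genes in all (0.115%). This was Gm5587 (ENSMUSG00000108518.2, minus strand, 25118578 to 25119251 on chromosome 7), a copy of Grpel2, which encodes an exchange factor of the mitochondrial import motor. It had 1 and 22 counts in WT 1 and WT 2, 52 and 1 in DD 1 and DD 2 and 48 and 2 in DD + rDKK3 1 and DD + rDKK3 2. The libraries with and without it thus did not follow genotype or treatment, and both libraries with the name DD1 had it. Grpel2 ranged from 56.8 to 94.5 CPM and was lowest in DD 1 and DD + rDKK3 1. Gm5587 differed from Grpel2 at 12 of 672 aligned bases, had 64.6% distinct windows, and its frame stopped after 60 codons against 224.

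Between the 2 WT libraries, which also differ in labelled sex and age, 3 members were on/off, as were 71 genes in all (0.479%). The part of sex or age was not tested. Gm5587 and Gstm2-ps1 were high in WT 2, and Rpsa-ps9 in WT 1. Gstm2-ps1, a copy best matched by Gstm1, a glutathione-conjugating enzyme, had 1 and 15 counts in WT against 51 and 7 in DD, with 12 and 3 after rDKK3. Gstm1 moved alongside, at 135.3, 991.2, 1729, 459.6, 648.2 and 341.7 CPM in the same libraries. Rpsa-ps9 had 16 and 2 counts in WT and between 8 and 11 in each null library, while its parent Rpsa, for a small subunit protein, ranged from 1289 to 1839 CPM.

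**Figure D5:**
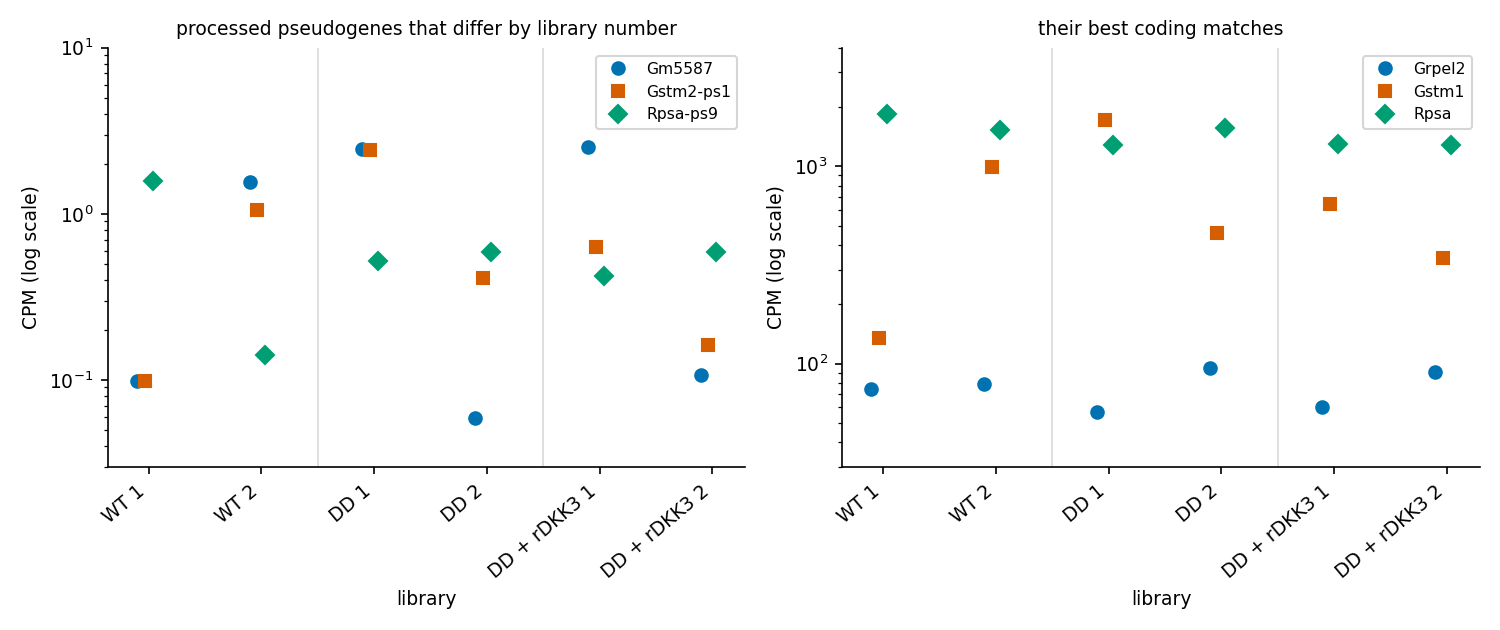
CPM (log scale) in each of the 6 libraries of the 3 pseudogenes that differed between libraries of the same group, on the left, and of their best coding matches on the right. Gm5587 is high in WT 2, DD 1 and DD + rDKK3 1 while Grpel2 stays between 56.8 and 94.5 CPM, and Gstm2-ps1 rises and falls with Gstm1.

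Markers of other cell types differed among the null libraries. The 7 markers of fibroblasts or stellate cells summed to 673.4 CPM in DD 2 and 753.8 in DD + rDKK3 2 with 50.6 in DD 1 and 132.2 in DD + rDKK3 1, and to 103.8 in WT 1 and 33.9 in WT 2, with no marker at 0 in all libraries. The 5 macrophage markers summed to 203.1 CPM in DD 2 and 158.6 in DD + rDKK3 2, with 66.0 in DD 1 and 77.7 in DD + rDKK3 1. They summed to 94.8 in WT 1 and 55.8 in WT 2. Ductal, endothelial and lymphocyte sums were also higher in both null libraries numbered 2, acinar sums were lower and islet sums mixed. Gm5587 was near 0 in DD 2 and DD + rDKK3 2, and in WT 1 at a fibroblast or stellate sum of 103.8. The part of these cells in the pseudogene levels was not tested. In bulk RNA, fewer cells of a type and less RNA per cell cannot be told apart.

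The genes around the on/off copies were examined for differences that reach beyond the copy. Within 1 Mb of each of the 6 copies there were 2 to 34 genes tested, none was called in DD against WT, and 0 to 3 had an unadjusted p under 0.05. Their median log2 fold changes lay between -0.08 and 0.33. Over all 14738 genes tested, 0.0407% were called and 8.26% had an unadjusted p under 0.05 (edgeR). With calls that rare, their absence among so few neighbours cannot show how far differences reach. The 6 copies lay on chromosomes 7, 8, 9, 13 and 14. Chromosome 7, which carries Dkk3 at 111715224 to 111758264, held 19 of the 277 members and 1 of the 6 on/off copies. Rps13, the parent of Rps13-ps1 and Rps13-ps2, also lies on chromosome 7, at 115930740 to 115933430. Whether its place near Dkk3 bears on the counts of its copies was not tested. Strain variants at these copies were not tested, since neither reads nor genotypes of the mice were used here.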

How the data were processed

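Bulk RNA-seq of 6 cultures of mouse pancreatic acini was analysed. The deposited table holds raw counts of read pairs per gene. The authors made them, per the study's methods, by aligning strand-specific 50-base paired-end reads with STAR 2.7.9a to GRCm39 and the basic GENCODE M32 annotation, counting alignments over exons in union mode without secondary alignments, and summing the exon counts per gene. Alignments that fit several places equally well were therefore counted only where the aligner reported them as primary, which bears on every pseudogene value. Replicates were not pooled.

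From the deposited counts, 92 spike-in rows, all at 0, were left out. Genes passing edgeR's filterByExpr (minimum count 10, minimum total 15; 14738 genes) were fitted in edgeR 4.0.16 by the quasi-likelihood model with TMM scaling over all 6 libraries in 3 groups. The p-values are two-sided with Benjamini-Hochberg adjustment over all genes tested, with calls made at an adjusted p under 0.05. CPM used TMM-scaled totals. A low group with all libraries at 0 was set at a floor of 3 counts per library, while lower counts above 0 were not raised to it. Floors and intervals cover counting error only. The procedure was tested on simulated counts.

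Pseudogene sequences, 50-base windows and coding transcripts came from GRCm39 with the later GENCODE M39 annotation. Lengths and windows were used only for the 239 pseudogenes with the deposited span. The length of a best coding match was that of all its exons joined over every annotated transcript. Best coding matches were found with blastn (BLAST 2.17.0, same strand, e-value limit 1e-10), leaving out the pseudogene's own locus. Alternatives were RLE size factors, library size alone, no filter, DESeq2 1.42.0, limma-voom (limma 3.58.1), blocks by replicate number, other minimum counts and leaving out each library.

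Genes named are the called and the on/off pseudogenes, the 8 ribosomal protein and the 8 other pseudogenes with the highest mean CPM, the 5 transcribed ones with the highest mean CPM, and their best coding matches. The result of 1 abundant pseudogene is not reported here. Others are said to be chosen after their values were seen. The members and lists were chosen with earlier results of these data known. The labelled ages differ between all 6 libraries, and no animal is named.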

Additional observations from a re-analysis of the deposited data

How the results depend on the processing

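Rps3a3 and Rps13-ps1 were called in DD against WT and in DD + rDKK3 against WT under all 14 alternatives, with log2 fold changes for DD against WT of -8.58 to -7.39 and 7.92 to 10.30. The number of members called in DD against WT was 4, and 2 without either WT or either DD library; leaving out a library gave 2 to 4. With library size alone it was 3, among 5 genes called in all. It was 5 among 77 genes with DESeq2 and 5 among 8 with limma-voom, both adding Rps13-ps2. Without a filter it was 6 among 528 genes, adding Rps13-ps2 and H2af-ps2. In DD + rDKK3 against WT it was 4, and 2 to 4 on leaving out a library, 2 with DESeq2, which gave Gm6166 and Rps3a2 no adjusted p, 2 with limma-voom and 7 without a filter, a fit that called 788 genes in all. In that comparison DESeq2 called 61 genes in all and limma-voom 3. Restricted, after seeing the data, to members with 10 counts in all 6 libraries, the number of members called was 0 in both comparisons with WT, because that rule removes the on/off copies. Leaving out a library gave 0 to 1 on/off members in DD + rDKK3 against DD. The members numbered 153 with 10 counts in all 6 libraries, 101 with 30 counts in 2 or more, and the ribosomal copies 47 by symbol alone. The log2 fold change of Rps3a1 in DD against WT, 0.22, was -0.017 without DD replicate 2 and 0.45 without DD replicate 1. Of the numbers recomputed, 66 stayed within 1.5 times and 16 did not.

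The replicate block over all 6 libraries called 4, 0 and 4 members in the 3 comparisons, as did a block within the 4 null libraries. Over all genes the first block called 7, 0 and 5, and the second 20, 0 and 15. Deviations of same-numbered libraries correlated at -0.39 for WT with DD, -0.25 for WT with DD + rDKK3 and 0.65 for DD with DD + rDKK3, and with 2 pairs a group this is a hint from the data only. A block with the WT numbers crossed, added after seeing the data, called 6, 0 and 8 members. That fit called 296, 29 and 566 genes in all. Depth limits most members: a count of 3 is 0.142 to 0.295 CPM, and 127 of 277 members had a mean under 1 CPM.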
